A study of Mus musculus with 22 samples.

Results

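Transcripts of 8 genes that keep DNA copying accurate were followed through skin, cultured MC38 cells and MC38 tumors. The genes are the mismatch repair genes Msh3, Msh6, Mlh3, Pms1, Pms2 and Exo1 and the catalytic subunits of the proofreading polymerases, Pole and Pold1. They were chosen by name, for their bearing on the high mutation load of MC38, and all 8 were found among the 46882 genes of the table. MC38 is a mouse colon carcinoma line that was induced chemically in C57BL/6 mice. RNA was measured in 16 libraries, namely 2 of MC38 cells (day 0), 2 of skin of wild-type C57BL/6N mice (day 23), and 12 of subcutaneous MC38 tumors, with 3 in each group. The tumors came from wild-type C57BL/6N mice (day 23 or day 46) or from mice labelled RAG1-/- (strain B6.129S7-Rag1tm1Mom/J, which makes no mature T or B cells) at day 13 or day 23. The animals were female and 8 to 12 weeks old, an age given for the injection of the cells, so age at sampling rose with the day. None of these groups is labelled as treated with an antibody, and 1 piece of each excised tumor was used for RNA.

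Mismatch repair removes the wrong bases and small loops that a polymerase leaves behind. MutS heterodimers recognise the fault, with MSH6 giving the complex for base mismatches and single-base loops and MSH3 the complex for longer loops. MutL heterodimers then act, with PMS2 carrying the main nicking activity, MLH3 serving meiosis and some loop repair, and PMS1 having no well-defined repair role. EXO1 digests the faulty strand, and polymerase epsilon (POLE, mostly the leading strand) and polymerase delta (POLD1, the lagging strand and the repair patch) carry an exonuclease that removes their own errors. Loss of mismatch repair gives microsatellite instability in colorectal cancer, and loss of proofreading gives very high rates of base substitution.

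Promoters of 3 members are shown because they hold a match to the E2F core. Of these, Msh6 and Pold1 were called higher in MC38 cells than in skin, and Msh3 was not. E2F factors drive genes of DNA replication. RefSeq promoters (GRCm38.p6, 250 bases before to 50 after the start) were found for 6 of the 8 members. The letters TTTNNCGC, searched on both strands, were present in 3 of these 6, against 5.27% of all 27025 promoters. No match was found in Mlh3, Pms1 or Pms2. Exo1 and Pole, the members with the largest differences between MC38 cells and skin, had no promoter to search. Genes higher in MC38 cells than in skin were found with a match (Msh6 and Pold1) and without it (Pms1 and Pms2). Msh3, with a match, and Mlh3, without it, were not called. The matches are in capitals below. They lie upstream of the start in Msh3 (chr13:92354954-92355253, minus strand), where a forward and a reverse match overlap, and downstream of it in Msh6 (chr17:87974800-87975099, plus strand) and Pold1 (chr7:44548766-44549065, minus strand).
Msh3: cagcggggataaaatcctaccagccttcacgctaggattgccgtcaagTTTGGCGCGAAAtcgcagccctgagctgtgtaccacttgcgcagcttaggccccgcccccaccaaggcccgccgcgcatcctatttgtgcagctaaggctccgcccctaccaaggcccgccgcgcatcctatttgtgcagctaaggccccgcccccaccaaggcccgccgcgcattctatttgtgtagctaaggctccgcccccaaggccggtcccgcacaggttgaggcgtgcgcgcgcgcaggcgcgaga
Msh6: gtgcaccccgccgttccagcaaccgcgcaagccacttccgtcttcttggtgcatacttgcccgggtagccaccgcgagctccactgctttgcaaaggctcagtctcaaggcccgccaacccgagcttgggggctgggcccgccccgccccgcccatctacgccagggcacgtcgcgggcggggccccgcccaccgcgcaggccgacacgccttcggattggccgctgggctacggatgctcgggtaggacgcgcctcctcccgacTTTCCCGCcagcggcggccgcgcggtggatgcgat
Pold1: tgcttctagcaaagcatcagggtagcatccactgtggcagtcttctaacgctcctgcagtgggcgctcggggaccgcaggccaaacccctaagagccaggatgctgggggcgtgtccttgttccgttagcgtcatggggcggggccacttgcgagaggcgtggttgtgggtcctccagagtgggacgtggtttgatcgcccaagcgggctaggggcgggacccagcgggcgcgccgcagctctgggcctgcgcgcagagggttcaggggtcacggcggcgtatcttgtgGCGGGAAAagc
The CCAAT box was present in 4 of the 6 promoters against 37.9% of all promoters, and the GC box GGGCGG in 5 of the 6 against 35.9%. A match of letters is a description and not a bound site.

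Libraries held 5589151 to 26134241 reads on genes, and each member had 45 to 2621 reads in a library, so none was near the floor of 3 reads (1.33 to 6.38 normalized counts). Normalized counts are reads divided by a size factor of the library, and they come from the 3′ end of transcripts, so levels are compared between libraries and not between genes. Reads on the targeted gene, Rag1, were present in 6 of 6 tumors labelled RAG1-/- (1 to 12 reads) and in 1 of 6 wild-type tumors (1 read). Whether these 3′ reads lie outside the deleted part of Rag1 is not given in the sources used here, so they do not decide the genotype. The 5 T cell markers summed to 1.11 to 19.1 normalized counts in the tumors labelled RAG1-/- and to 16.6 to 175 in the wild-type tumors. Cd3e was at 0 in all 6 tumors labelled RAG1-/- and at 3.91 to 23.2 in the wild-type tumors. Cd8a was at 0 to 0.44 and at 5.86 to 79.7 in the same order. The ranges of Cd3d, Cd3g and Cd4 met or overlapped, with Cd4 at 1.11 to 16.2 and at 0 to 17.0. The 7 epithelial markers, Epcam, Cdh1, Krt8, Krt18, Krt20, Cdx2 and Vil1, summed to only 4.28 to 7.82 in MC38 cells, with 3 of the 7 at 0 in both libraries. Skin is a mixture of cell types, with median marker sums of 380985 normalized counts for fibroblasts, 241413 for keratinocytes and 97555 for skeletal muscle. The tumors also held host cells, with macrophage markers at 8317 to 15569 normalized counts against 43.6 to 65.5 in MC38 cells. Skeletal muscle markers summed to 277 to 7214 in tumors labelled RAG1-/- of day 13 and to 22.1 to 55.0 at day 23. In wild-type tumors they summed to 20.5 to 954. The part of this muscle in the comparisons between days was not tested. In such bulk samples fewer cells of a type and less RNA per cell cannot be told apart.

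MC38 cells were first compared with skin, to see which of these genes the line carries at another level than a normal tissue of the same strain. Of the 8 members, 6 were higher in MC38 cells. In order of size they were Exo1, Pole, Msh6, Pms2, Pold1 and Pms1, with differences of 4.46-fold to 1.98-fold, while Msh3 and Mlh3 stood close to their skin levels. Of all 16780 genes tested, 20.8% were higher and 41.2% lower in MC38 cells at an adjusted p under 0.05 (limma, Benjamini-Hochberg), against 6 of 8 and 0 of 8 members. The median log2 fold change was 1.36 over the members and -0.40 over all genes. The comparison with skin depends on scaling, because rescaling to the library total moved the median of all genes by 0.41 and the share of higher genes among those called from 33.5% to 46.3%, while the same 6 of 8 members were called. Relative to the median of all genes, the log2 differences were 0.29 for Msh3, 0.46 for Mlh3 and 1.39 (Pms1) to 2.55 (Exo1) for the other 6.

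Exo1, the exonuclease that resects the faulty strand, had 349 and 305 normalized counts in the MC38 libraries and 85.7 and 61.2 in skin. This is a log2 fold change of 2.16 ± 0.26 (SE, n = 2 and 2, limma adjusted p = 0.00187). Pole was at 527 and 472 in MC38 cells and at 127 and 126 in skin, a log2 fold change of 1.97 ± 0.18 (adjusted p = 0.000793, limma). Both libraries of the line were thus above both of skin for these genes, as for all 6 members called. With 2 against 2 libraries such separation is usual, since 30.6% of all genes tested lay above and 51.4% below. Pold1 had 518 and 436 normalized counts in MC38 cells against 228 and 157 in skin, a log2 fold change of 1.33 ± 0.25 (adjusted p = 0.00814, limma).

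Of the partners that decide what is recognised, Msh6 was called higher and Msh3 was not. Msh6 was at 1820 and 2045 normalized counts in MC38 cells and at 631 and 618 in skin, which is 3.09-fold higher (95% interval 2.43 to 3.92, limma adjusted p = 0.000604). Msh3 was at 203 and 158 in MC38 cells and at 169 and 222 in skin, so the groups overlapped. The fold for Msh3 was 0.927 with a 95% interval of 0.589 to 1.46 (limma adjusted p = 0.729), and its sign changed with the scaling, from -0.11 on the log2 scale to 0.30 when libraries were rescaled to their totals. The Msh3 interval therefore ended below the lower end of the Msh6 interval. The exact permutation test of their ratio cannot give a p under 0.333 with 2 against 2 libraries (adjusted p = 0.533), so it does not decide the difference.

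Among the MutL genes, Pms2 had 293 and 218 normalized counts in MC38 cells against 106 and 85.4 in skin (2.64-fold, 95% interval 1.66 to 4.21, limma adjusted p = 0.00784). Pms1 had 169 and 139 against 72.3 and 81.6 (1.98-fold, 1.27 to 3.10, limma adjusted p = 0.0211). Mlh3 did not separate the groups, with 208 and 184 in MC38 cells and 175 and 200 in skin (1.04-fold, 0.724 to 1.501, limma adjusted p = 0.814). With 1 library left out, Pms1, Pms2 and Pold1 could lose the call, and the count of members called ranged from 3 to 5. The count was 3 without MC38 replicate 1, skin replicate 1 or skin replicate 2, and Exo1, Pole and Msh6 passed under all 15 alternatives.

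**Figure D1:**
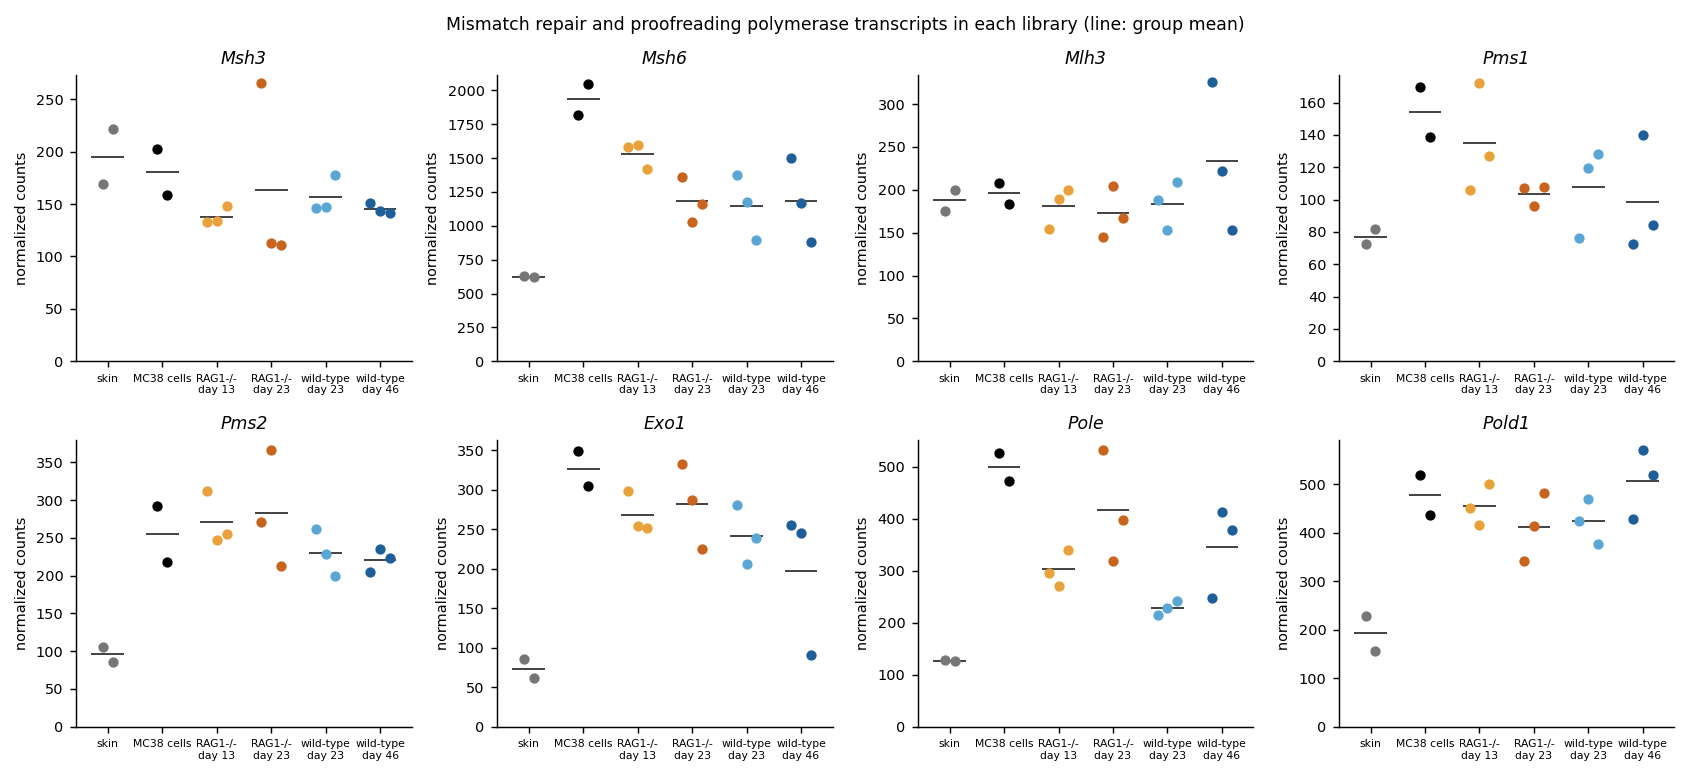
Normalized counts (y axis, from 0) of each member in every library, by group (x axis). Points are libraries and lines are group means. Exo1, Pole, Msh6, Pms2, Pold1 and Pms1 lie higher in both MC38 libraries than in both skin libraries, while Msh3 and Mlh3 overlap (of all genes tested, 30.6% lie above and 51.4% below skin in this way).

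The tumors were next compared with skin. Of the 8 members, 5 were higher in the tumors, and all 12 tumors lay above both skin libraries for each of these 5, as was so for 19.8% of all genes tested. Of these 16259 genes, 24.4% were higher and 36.3% lower in tumors (40.2% of the calls were higher, against 56.5% after rescaling to the total, which moved the median of all genes by 0.39). Exo1 ranged from 91.0 to 333 normalized counts over the 12 tumors (median 253), and was 3.25-fold higher than skin (limma adjusted p = 0.000267). Pms2 ranged from 199.6 to 366 (median 241) and was 2.59-fold higher (limma adjusted p = 4.00e-05). Pole (2.45-fold), Pold1 (2.35-fold) and Msh6 (1.98-fold) followed, with limma adjusted p-values of 9.11e-05, 3.09e-05 and 0.000315.

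The other 3 members did not pass against skin. Pms1, at 72.3 to 172 in the tumors (median 108), was 1.40-fold higher with a 95% interval of 0.919 to 2.14 (limma adjusted p = 0.153). Its call depended on scaling, with a log2 fold change of 0.79 (adjusted p = 0.0264) after rescaling to the upper quartile. Msh3 was at 111 to 266 (median 144) and Mlh3 at 145 to 325 (median 189), with folds of 0.761 (0.508 to 1.14) and 1.00 (0.698 to 1.44). Without the first day 23 tumor labelled RAG1-/-, in which Msh3 was highest, Msh3 passed the test as lower in tumors (log2 fold change -0.50, limma adjusted p = 0.0329).

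The tumors were then set against the MC38 cells from which they grew. All 8 members had a log2 fold change below 0, where 53.6% of all genes tested were above 0. Of the members, 2 passed the test as lower, Msh6 and Pole. Pold1 (-0.09), Mlh3 (-0.06) and Pms2 (-0.03) were near 0 and changed sign in some alternatives. Of all 14708 genes tested, 9.43% were lower and 18.2% higher in tumors, and the median log2 fold change was 0.05 over all genes and -0.37 over the members. Msh6 ranged from 877 to 1597 normalized counts in the tumors (median 1270), so that all 12 lay under both MC38 libraries, as was so for 10.2% of all genes tested. Its log2 fold change was -0.64 ± 0.18 (SE, n = 12 and 2, limma adjusted p = 0.0122). Pole ranged from 214 to 532 (median 308), with 11 of 12 tumors under both MC38 libraries and 1 above them, and its log2 fold change was -0.68 ± 0.20 (limma adjusted p = 0.0177).

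For the other members the intervals of the fold were 0.561 to 1.20 for Msh3, 0.681 to 1.36 for Mlh3, 0.477 to 1.05 for Pms1, 0.733 to 1.31 for Pms2, 0.483 to 1.10 for Exo1 and 0.738 to 1.19 for Pold1. Neither call was kept when 1 MC38 library was left out. Without MC38 replicate 1 the adjusted p was 0.0683 for Msh6 and 0.193 for Pole, and without replicate 2 it was 0.184 and 0.0996 (limma). With the 6 tumors labelled RAG1-/- alone both missed the threshold (0.0563 and 0.0983), and with the 6 wild-type tumors alone both passed it. The fold in tumors is measured on a mixture that also holds host transcripts, and the part of the macrophage and other host RNA in these lower values was not tested.

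**Figure D2:**
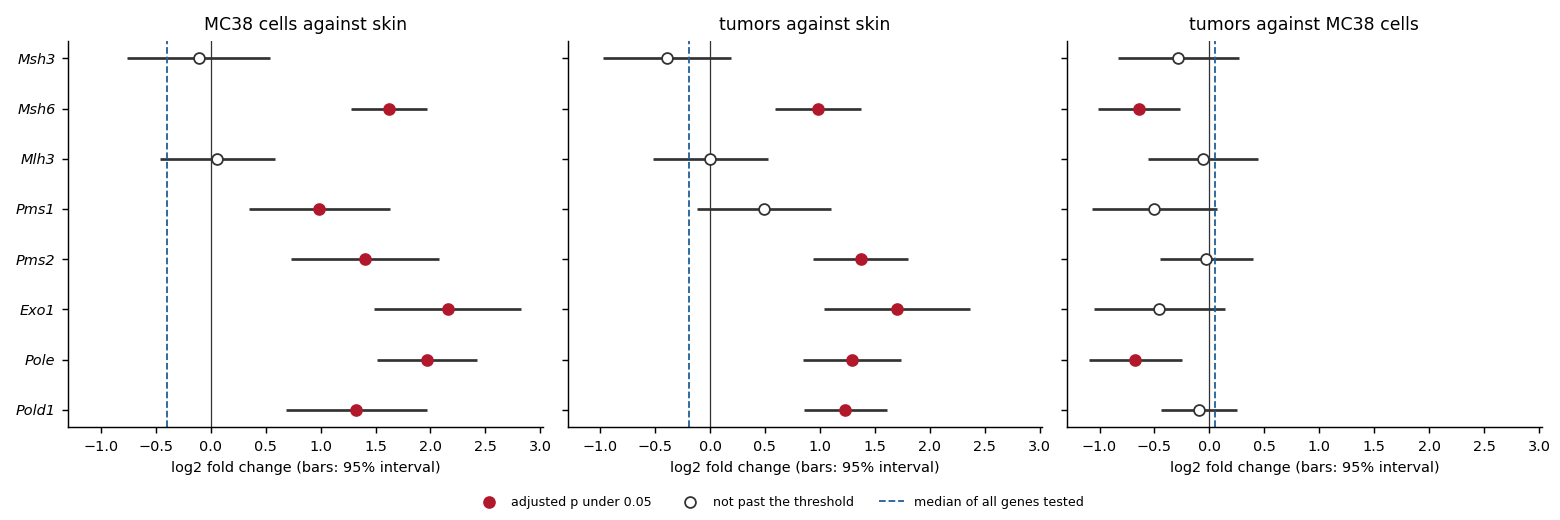
Log2 fold change (x axis) of each member (y axis) in MC38 cells against skin, tumors against skin and tumors against MC38 cells. Bars are 95% intervals, filled points have an adjusted p under 0.05, and the dashed line is the median of all genes tested. The panels hold 6 higher, 5 higher and 2 lower members that pass, against 20.8% higher, 24.4% higher and 9.43% lower of all genes tested. In the last panel all 8 points lie below 0, where 53.6% of all genes tested lie above 0.

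Host genotype at day 23 was compared next, with 3 tumors in each group. Strain differed together with the genotype label, so genotype and strain cannot be told apart. No member passed, where the wild-type tumors had 0.231% of the 14746 genes tested higher and 0.0475% lower (1646 genes had an unadjusted p under 0.05, edgeR called 22 genes and DESeq2 239). Pole had the widest separation of the 8. It was at 214, 228 and 242 normalized counts in the wild-type tumors and at 532, 319 and 397 in the tumors labelled RAG1-/-. The groups did not overlap, as was also so for 16.1% of all genes tested. The log2 fold change was -0.83 ± 0.23 (SE, n = 3 and 3), with an unadjusted p of 0.00215 and an adjusted p of 0.152 (limma). Over the alternatives the adjusted p ran from 0.0257 with DESeq2, which called Pole, to 0.515 without the first tumor labelled RAG1-/-, and edgeR gave 0.144. The other 7 members had folds between 0.828 (Pms2) and 1.06 (Mlh3).

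Time in the host gave no call for any gene with limma. In wild-type tumors from day 23 to day 46, 0% of genes were higher and 0% lower (1261 had an unadjusted p under 0.05, 41 passed with DESeq2 and 0 with edgeR), and the same 0% in both directions was found in tumors labelled RAG1-/- from day 13 to day 23 (1722, 206 and 0 genes). Pole was at 247, 414 and 378 normalized counts at day 46 in the wild type, all above the 3 values of day 23 (log2 fold change 0.57 ± 0.23, unadjusted p = 0.0239, adjusted p = 0.522, limma). Msh6 was at 1582, 1597 and 1418 at day 13 in the tumors labelled RAG1-/- and at 1363, 1026 and 1158 at day 23, again without overlap (-0.38 ± 0.20, adjusted p = 0.477, limma). Among all genes 12.5% and 19.4% did not overlap in these 2 comparisons. The difference of the time courses also gave 0% of genes in each direction (1279 with an unadjusted p under 0.05, 58 called with DESeq2 and 0 with edgeR). Its member values ran from -0.48 (Exo1) to 0.41 (Msh6, with Pold1 also at 0.41 when rounded) on the log2 scale. These comparisons share the day 23 tumors.

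Single tumors stood apart in some members. In the third wild-type tumor of day 46, Exo1 was at 91.0 normalized counts from 145 reads, while the other 11 tumors were at 206 or more. The same tumor had the lowest Msh6 (877) and the lowest cell cycle index. In the first day 23 tumor labelled RAG1-/-, Msh3 (266), Exo1 (333) and Pole (532) were at their highest of the 12 tumors, Mlh3 (145) and Pold1 (342) at their lowest, and the cell cycle index was the highest of the 12. Mlh3 reached 325 in the first wild-type tumor of day 46 and was at most 222 in the others.

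Because a ratio of transcripts in the same library does not depend on its scaling, paired members were also set against each other. The ratios are of 3′ counts and are read only across libraries, not as amounts of protein. Msh6 to Msh3, which encode the alternative partners of the mismatch and the loop complex, was 3.72 and 2.78 in skin and 8.94 and 12.8 in MC38 cells. It was 5.004 to 11.9 in the tumors, all 12 above skin. On the log2 scale tumors exceeded skin by 1.38 (exact two-sided permutation p = 0.0220, the smallest these groups allow, adjusted p = 0.264 over 24 tests), and MC38 cells exceeded skin by 1.74, where 2 against 2 libraries cannot give a p under 0.333.

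Pms2 to Mlh3 was also lowest in skin, with 0.605 and 0.430 in skin, 1.41 and 1.19 in MC38 cells and 0.632 to 2.02 in the tumors (difference to skin 1.37 on the log2 scale, exact permutation p = 0.0220, adjusted p = 0.264). Pms2 to Pms1 was 1.46 and 1.05 in skin and 1.72 and 1.57 in MC38 cells, and 11 of 12 tumors lay above skin (exact permutation p = 0.0440, adjusted p = 0.352). Pole to Pold1 was 1.02 and 1.08 in MC38 cells, and 11 of 12 tumors lay below that (exact permutation p = 0.154, adjusted p = 0.533). In wild-type tumors of day 23 it was 0.505, 0.488 and 0.647, and in tumors labelled RAG1-/- of the same day 1.55, 0.774 and 0.823 (exact permutation p = 0.1, the smallest for 3 against 3, adjusted p = 0.480). No ratio passed after adjustment over the 24 tests.

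**Figure D3:**
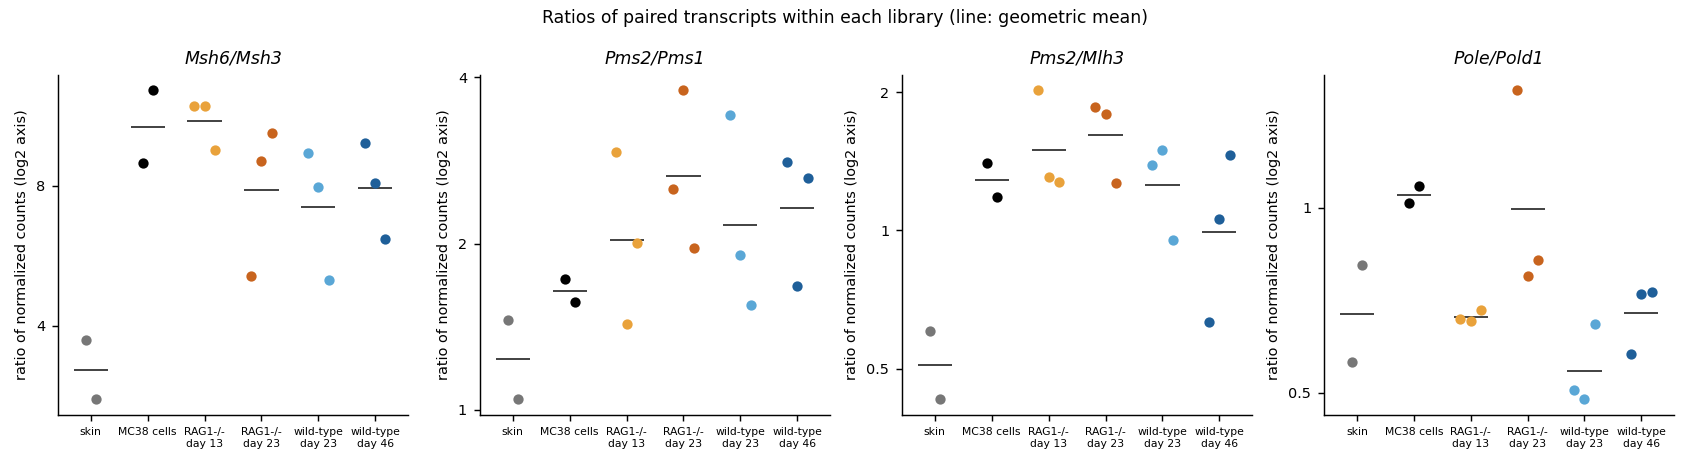
Ratio of normalized counts of paired members (y axis, log2 axis) in every library, by group (x axis). Points are libraries and lines are geometric means. Msh6 to Msh3 lies at 2.78 to 3.72 in skin and at 5.004 or more in every other library.

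Relatives and partners of the members were described for context. Of 11 genes that act with mismatch repair at the fork, 8 were higher in MC38 cells than in skin (20.8% of all genes), with a median log2 fold change of 1.20. They included Pcna, the sliding clamp (1.20), Rfc5 of the clamp loader (2.03), Rpa1 of the single-strand binding complex (1.41) and Lig1, the ligase that seals the patch (1.39). Of the 6 smaller subunits of polymerases delta and epsilon, 4 were higher, led by Pold2 (2.19) and Pole2 (1.64). Of the 4 genes of the polymerase alpha complex, which has no proofreading, 3 were higher, among them Pola1, its catalytic subunit (1.90). The nucleotide pool list had 7 of 9 genes higher, with Rrm2 of ribonucleotide reductase at 2.95, and the cell cycle list had 17 of 20 (median 1.57). The lists were chosen with earlier results known.

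Other repair pathways had members called in both directions in the same comparison, where 20.8% of all genes were higher and 41.2% lower. In base excision repair 6 of 16 genes were higher and 3 lower, with Ogg1, the glycosylase for oxidised guanine, at 1.88 and Polb, the gap-filling polymerase, at -1.91. In nucleotide excision repair 2 of 13 were higher and 3 lower, with Ddb1 at 0.93 and Ercc5 at -2.12. Among 9 polymerases and partners without proofreading 4 were higher (Polq, 2.26) and 2 lower (Polh, -1.73). Polg, the mitochondrial polymerase that proofreads, did not pass (0.22, adjusted p = 0.283), and Trex2, a nuclear exonuclease of keratinocytes, was at 599 and 908 normalized counts in skin and had no read in MC38 cells. Of the meiotic MutS genes, Msh5 did not pass (0.17) and Msh4 was too low to be tested. In tumors against MC38 cells, 2 of the 11 fork genes were lower (Rpa1 and Rpa2) and 4 of the 20 cell cycle genes (1 higher), against 9.43% of all genes lower and 18.2% higher.

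**Figure D4:**
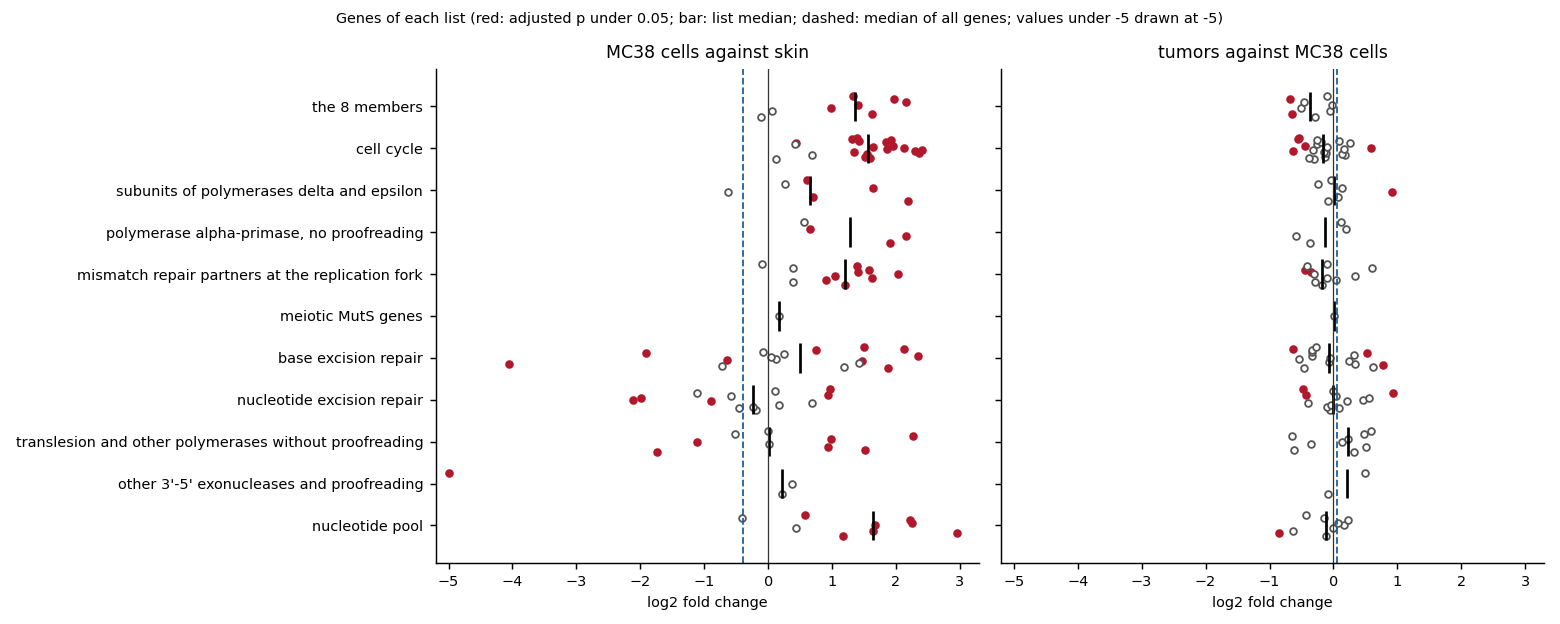
Log2 fold change (x axis) of the 8 members and of every tested gene of 10 lists (y axis) in MC38 cells against skin and in tumors against MC38 cells. Red points have an adjusted p under 0.05, short bars are list medians, the dashed line is the median of all genes, and values under -5 are drawn at -5. The medians of the members, the fork partners, the nucleotide pool and the cell cycle lie between 1.20 and 1.64 in the first panel.

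The level of each member was compared with a cell cycle index, the mean log2 level of the 20 cell cycle genes. The index averaged 8.91 in skin, 10.4 in MC38 cells and 10.3 in tumors, where it spanned 9.999 to 10.44. Over the 12 tumors Exo1 had Pearson's r of 0.893 (permutation p = 0.00139, adjusted p = 0.0111 over 8 members) and Spearman's rho of 0.545 (permutation p = 0.0706, adjusted p = 0.538). Without the 2 tumors farthest from the median index, the third wild-type tumor of day 46 and the first day 23 tumor labelled RAG1-/-, r fell to 0.419. The relation thus depends on those samples, though leaving them out also narrows the range of the index. Within the 6 wild-type tumors r was 0.967 and within the 6 tumors labelled RAG1-/- 0.753, and each of these sets still holds a tumor farthest from the median. Msh6 had r of 0.604 (permutation p = 0.0315, adjusted p = 0.126) and rho of 0.462 (permutation p = 0.134, adjusted p = 0.538), with 0.398 without those 2 tumors and 0.634 and 0.443 within the genotypes. The other 6 members had r between -0.448 (Pold1) and 0.431 (Msh3), with adjusted p-values of 0.301 or more. Pole had r of 0.042.

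**Figure D5:**
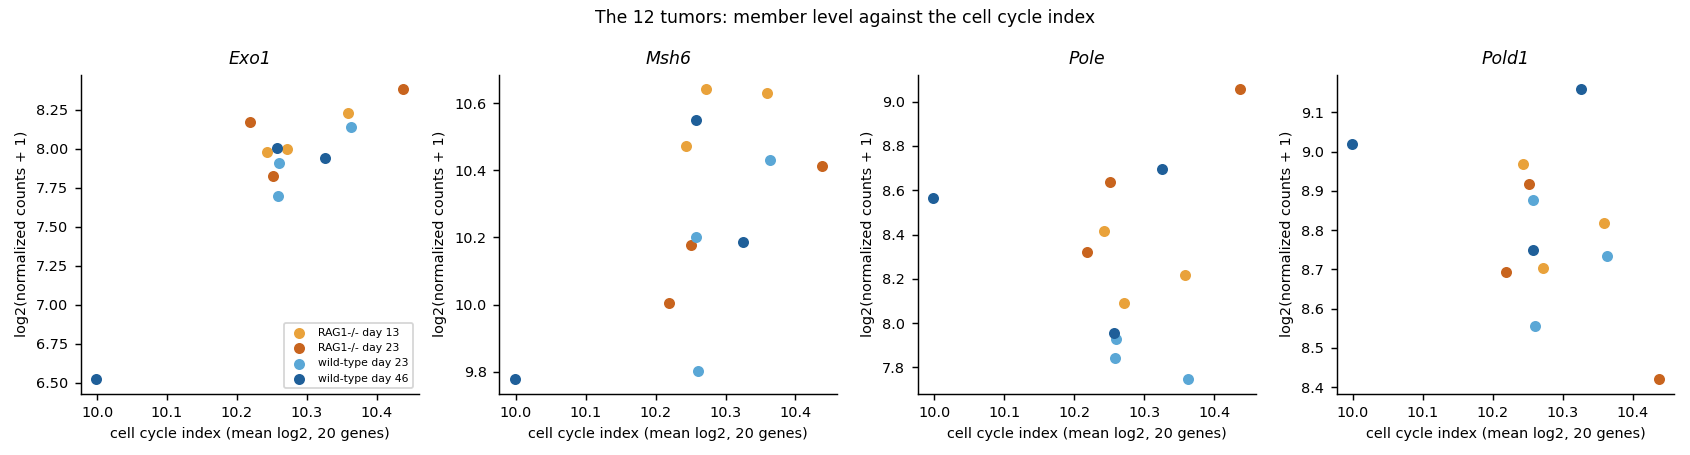
Level of Exo1, Msh6, Pole and Pold1 (y axis, log2 of normalized counts + 1) against the cell cycle index (x axis, mean log2 level of 20 genes) in the 12 tumors, coloured by group. The tumor at the far left, with an index of 9.999, has the lowest Exo1 and Msh6.

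Position in the genome adds to this description (GENCODE vM21, GRCm38). Msh3 lies at chr13:92211872-92355003 on the minus strand. Pms2 (chr5:143909964-143933968, plus strand) starts 117 bases from the start of Aimp2 on the opposite strand, a scaffold of the tRNA synthetase complex, which was 2.18-fold higher in MC38 cells than in skin (limma adjusted p = 0.00388). Pms1 (chr1:53189187-53297018, minus strand) starts 77 bases from Ormdl1, a regulator of sphingolipid synthesis, which did not pass against skin (0.780-fold, adjusted p = 0.109) and was 1.62-fold higher in tumors than in MC38 cells (limma adjusted p = 0.0329). Gm28778, also beside Pms1, had no read in any library. Pole (chr5:110286306-110337474, plus strand) starts 120 bases from Pxmp2, a peroxisomal membrane channel, which was at 0.718-fold in MC38 cells against skin (adjusted p = 0.164) and 0.415-fold in tumors against MC38 cells (limma adjusted p = 0.00790). Against skin, both genes of the pair thus passed for Pms2 and Aimp2, and the member alone for Pms1 and Pole.

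Within 1000 bases no neighbour that starts on the opposite strand was found for Msh6 (chr17:87975062-87990892, plus strand), Mlh3 (chr12:85234520-85270599, minus strand), Exo1 (chr1:175880581-175913489, plus strand) and Pold1 (chr7:44532746-44548849, minus strand). Exons of Fbxo11 on the opposite strand overlap 6.80% of the last 500 exonic bases of Msh6, and the strand setting of the counting is not given in the sources used here, so a few of its reads may not be separable from those of Fbxo11.

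The genes with the most similar profiles over the 16 libraries were listed for each member, among 13181 others whose mean was 20 normalized counts or more. They were Tsen15, Kntc1 and Bag2 for Exo1 (r = 0.977, 0.957 and 0.948), Agps and Nip7 for Pms2 (0.970 and 0.959) and Ywhag, Brca2 and Smurf1 for Pole (0.961, 0.946 and 0.943). For Msh6 they were Rad23b, Mtfp1 and Foxk2 (0.948, 0.945 and 0.941) and for Pold1 Dmwd, Ptk2 and Ddx41 (0.944, 0.940 and 0.935). The closest profiles had lower values for the other members, with Dlg1, Thnsl1 and Lcorl for Msh3 (0.822, 0.804 and 0.797), Wdr25, Mecr and Rpl13-ps3 for Mlh3 (0.828, 0.770 and 0.767) and Imp4, Nup133 and Cnot11 for Pms1 (0.815, 0.814 and 0.795). The 2 skin libraries weigh heavily in these values, which are descriptions of 16 libraries.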

How the data were processed

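RNA was measured in 16 libraries. The authors prepared QuantSeq 3′ libraries for the Ion Proton, trimmed reads with Cutadapt and Trimmomatic (reads under 22 nt discarded), aligned to mm10 with STAR and then Bowtie2, retained primary alignments of multi-mapping reads, discarded ribosomal reads and counted with HTSeq-count. The deposited signal is the count per gene after DESeq2 normalization. Versions, annotation and strand setting are not given in the sources used here. Whole reads were recovered for 100% of the values in every library (tolerance 0.01).

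Comparisons used limma 3.58.1 with a trend on log2(value + 1), over genes with a mean of at least 5, with Benjamini-Hochberg adjustment over all genes tested. Fold changes are on that scale. The scripts were tested on simulated counts in which few genes changed, in both directions alike. Such counts do not test the effect of scaling in the comparisons with skin, where many genes differed. Alternatives were other pseudocounts (0.1 and 5), filters, scalings, edgeR 4.0.16 and DESeq2 1.42.0 on the recovered reads, a replicate block and leaving out each library. Ratios used exact permutation tests (4 pairs, 6 comparisons), and correlations 100000 permutations. Named genes are the 8 members, the lists, divergent neighbours within 1000 bases and the 3 closest profiles. Some genes these rules name are not reported here. The members and lists were chosen with earlier results of these data known. The labels do not say whether replicates of cells and skin came from separate cultures or animals, so p-values measure the spread between these samples. A second table, with 6 columns whose names match no label, was not used, and the antibody-treated tumors are not analysed here.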

Additional observations from a re-analysis of the deposited data

How the results depend on the processing

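Calls in MC38 cells against skin rested on 2 skin and 2 MC38 libraries, and calls in tumors against skin on 12 tumors and the same 2 skin libraries. In MC38 cells against skin, 6 members were called under every alternative that kept all libraries, and 3 to 5 when 1 was left out, with 6253 to 7400 genes called in all. Msh3 moved to 0.21 (upper quartile), 0.30 (total) and 0.019 (edgeR) on the log2 scale, and without 1 library Msh3 ran from -0.31 to 0.086 and Mlh3 from -0.034 to 0.15. In tumors against MC38 cells, 0 to 2 members and 2092 to 4438 genes were called without 1 library (0 members and the fewest genes without either MC38 library), and 0 members with tumors labelled RAG1-/- alone. Values near 0 changed sign there, with Pms2 at 0.11 in tumors labelled RAG1-/- and Mlh3 at 0.041 in wild-type tumors, and without 1 library Mlh3 ran from -0.15 to 0.031, Pms2 from -0.24 to 0.18 and Pold1 from -0.22 to 0.030. In tumors against skin, Msh3 was at 0.0042 after rescaling to the total, Mlh3 was at -0.096 in tumors labelled RAG1-/- and ran from -0.092 to 0.097 without 1 library.

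Between genotypes at day 23 the count of all genes called was 41, against 22 with no filter, 15 with no trend, 22 with edgeR, 239 with DESeq2 (which called 1 member, Pole) and 5 to 89 without 1 library, the highest counts being without the first or the third wild-type tumor of day 46. Mlh3 ran from -0.025 to 0.22. For wild-type time the counts were 41 with DESeq2 and 0 to 7 without 1 library, for RAG1-/- time 206 and 0 to 37, and for the difference of time courses 58 and 0 to 5, with 3 in a fit of all 16 libraries. There Exo1 ran from -0.74 to 0.0041. The cause was not tested. The correlation of Pole with the index was -0.091 by rank, -0.15 without the 2 farthest tumors and -0.45 in wild-type tumors, and that of Pold1 was 0.18 without those 2. Another 46 values, which the text does not name except for Msh6 in the difference of time courses, changed sign in 52 of 739 alternatives and no call.

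No pairing by replicate number was seen among the tumors. Same-numbered tumors of different groups correlated at -0.24 to 0.25, and differently numbered ones at -0.21 to 0.20. For MC38 cells and skin the values (-0.011 and 0.011) are equal in size by construction with 2 libraries a group. They cannot show whether the numbers pair those samples. With a replicate block 6, 2, 5 and 0 members were called in MC38 cells against skin, tumors against MC38 cells, tumors against skin and between genotypes, as without it, and 39 genes in all between genotypes. Pms2 in tumors against MC38 cells was at 0.052.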
